A study of Homo sapiens with 4 samples.

Results

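ESRP1 and ESRP2, the RNA-binding proteins that hold epithelial cells to the epithelial form of many transcripts, were described in AGS gastric cancer cells with and without an shRNA against MFAP2, together with RBFOX2, a splicing factor that acts on some of the same exons, and 4 genes known for exons under the control of these factors (CD44, CTNND1, ENAH and FGFR2). The 7 genes were chosen by name, and all of their rows were taken, 7 of the 47251 genes and 144 of the 180500 transcripts in the deposited tables. AGS is a line of human gastric adenocarcinoma cells. Cells trim a short hairpin RNA, or shRNA, to a small RNA that targets a given transcript. RNA was sequenced from 2 libraries labelled sh-MFAP2, of AGS cells carrying shRNA against MFAP2, and from 2 libraries labelled sh-control, of AGS cells carrying a scrambled shRNA. By the study's methods the shRNAs were delivered by lentivirus and infected cells were kept under puromycin for 4 weeks, so that both groups share the virus and the selection. The sample titles and the headers of the table columns number the sh-MFAP2 libraries as replicates of sh1. The description of replicate 2 gives its column name as sh2, so that the labels do not settle whether both carry the same hairpin. No source states whether the 2 libraries of a group came from separate cultures, and p-values then measure only the spread between these libraries, which may be technical.

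ESRP1 and ESRP2 bind GU-rich sequences in pre-mRNA and promote or block the use of nearby exons, depending on where they bind. In epithelial cells they favour the FGFR2 exon IIIb over exon IIIc, the variable exons of CD44, exon 11a of ENAH and the shorter forms of p120-catenin (CTNND1), and the loss of both proteins is a known feature of epithelial-mesenchymal transition. The question put to the data here is whether the level of the regulators and the choice among the isoforms of their targets differed between the sh-MFAP2 and control libraries.

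The splice choices that the values below turn on are shown first, as read from the reference transcripts of GENCODE 29 on GRCh38. For ENAH the cassette exon 11a (chr1:225504991-225505053, minus strand, coding, 63 bases) is given in capitals between the last 12 bases of the exon before it and the first 12 of the exon after it, and the junction that skips it is given with the downstream exon in capitals.
ENAH exon 11a: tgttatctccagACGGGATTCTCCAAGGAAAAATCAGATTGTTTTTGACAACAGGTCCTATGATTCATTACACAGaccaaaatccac
ENAH skipping junction: tgttatctccagACCAAAATCCAC

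FGFR2 carries a pair of mutually exclusive coding exons for the carboxy-terminal part of the immunoglobulin-like domain nearest the membrane, which sets which FGF ligands it binds. Exon IIIb (chr10:121518682-121518829, minus strand, 148 bases), the epithelial choice, is shown in capitals with 12 bases of the neighbouring exons.
FGFR2 exon IIIb: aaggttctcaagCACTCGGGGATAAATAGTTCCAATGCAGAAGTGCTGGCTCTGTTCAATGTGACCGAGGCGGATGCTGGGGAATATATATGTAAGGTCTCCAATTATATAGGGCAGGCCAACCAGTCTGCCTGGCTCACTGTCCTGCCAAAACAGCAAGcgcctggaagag

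CD44 has 9 variable exons, v2 to v10, between its standard exons in the reference. The transcript with the largest share of CD44 in these cells, CD44-209, joins the standard exons directly to v8 (chr11:35208105-35208206, plus strand), which is followed by v9 (chr11:35209965-35210054) and v10 (chr11:35211246-35211449), all coding. The junction that skips every variable exon and the junction into v8 are given with the downstream exon in capitals, and exons v8 and v9 are given in capitals with 12 bases of their neighbours in CD44-206, where v8 follows v7.
CD44 standard junction: tccctgctaccaGAGACCAAGACA
CD44 v8 junction: tccctgctaccaATATGGACTCCA
CD44 v8: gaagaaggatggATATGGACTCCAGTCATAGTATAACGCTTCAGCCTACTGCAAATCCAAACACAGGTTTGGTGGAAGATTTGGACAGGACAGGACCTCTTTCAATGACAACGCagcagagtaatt
CD44 v9: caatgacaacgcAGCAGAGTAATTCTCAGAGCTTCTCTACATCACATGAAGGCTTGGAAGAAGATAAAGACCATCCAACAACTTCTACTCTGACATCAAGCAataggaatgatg

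CTNND1 is translated from 4 start codons, which give p120-catenin isoforms 1 to 4, and holds 3 small alternative exons named A, B and C. The first start codon lies at chr11:57791479-57791481 and the third at chr11:57795613-57795615, on the plus strand. Each start is shown in capitals and followed by the next coding bases in lower case, and exons C (chr11:57806461-57806478, 18 bases), A (chr11:57814311-57814373, 63 bases) and B (chr11:57815915-57816001, 87 bases) are shown in capitals with 12 bases of their neighbours.
CTNND1 start 1: ATGgacgactcagaggtggagtcgaccgcc
CTNND1 start 3: ATGcaggagccggggcagattgtggagacc
CTNND1 exon C: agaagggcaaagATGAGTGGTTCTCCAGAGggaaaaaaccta
CTNND1 exon A: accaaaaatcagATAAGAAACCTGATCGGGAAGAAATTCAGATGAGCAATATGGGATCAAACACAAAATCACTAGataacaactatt
CTNND1 exon B: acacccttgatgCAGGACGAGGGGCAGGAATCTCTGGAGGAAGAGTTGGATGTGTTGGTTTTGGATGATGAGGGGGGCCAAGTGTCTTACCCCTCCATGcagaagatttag

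RBFOX2 transcripts differ by their first exon, and so by the start codon, and by a coding exon of 40 bases (chr22:35756105-35756144, minus strand). The most upstream start codon, at chr22:36028423-36028425, is used by RBFOX2-209 among the listed transcripts with a complete coding sequence. It is shown in capitals, followed by the next coding bases in lower case, beside the next start downstream (chr22:35840216-35840218) and the 40-base exon with 12 bases of its neighbours.
RBFOX2 start 1: ATGgcggagggcgcccagccgcatcagccg
RBFOX2 start 2: ATGgagaaaaagaaaatggtaactcagggt
RBFOX2 40-base exon: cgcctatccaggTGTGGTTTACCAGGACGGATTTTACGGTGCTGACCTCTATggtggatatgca

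The values are read as FPKM, fragments per kilobase of transcript scaled to the number of mapped fragments, a unit that was inferred since no table header gives it. Steps between low values implied about 54794000 to 75064000 reads per library, with 57.7% to 60.5% of low values within 0.05 of a whole step, and from 635 to 24317 reads for a member in a library, so depth is an inference here and not a count from the authors. Of 7 gastric epithelial marker genes, 6 had a mean of at least 1 FPKM (their summed level was 1737 to 1985 FPKM), although CLDN4 reached it only through sh-MFAP2 replicate 1, CDH1 had 0.584 and 0.853 FPKM under sh-MFAP2 against 1.25 and 1.15 FPKM, all 7 leukocyte and endothelial markers were below 0.1 FPKM in every library, and so were 5 of 6 fibroblast markers, the exception being COL1A1 at 2.27 and 2.07 FPKM under sh-MFAP2 against 4.36 and 4.92 FPKM, whose part in the results was not tested. MFAP2 itself had no reads with either sh-MFAP2 library (0 FPKM) and 0.0116 and 0.0138 FPKM in the controls, about 2.01 and 3.02 reads, which is too little to test the labels. Groups were compared with limma on log2(FPKM + 1) over 9873 genes whose mean reached 1 FPKM. A gene was called at p under 0.01 and Benjamini-Hochberg adjusted p under 0.05, and a difference on the log2(FPKM + 1) scale understates the change of low genes.

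At the gene level 5 of the 7 members were lower in both sh-MFAP2 libraries than in either control, and CD44 and FGFR2 overlapped between the groups. Of all genes tested, 31.4% were lower without overlap in the same way and 17.5% were higher, which no member was. No member was called, against 0.273% of all genes (27 genes), and 3 of 7 members (CTNND1, ENAH and RBFOX2) had an unadjusted p under 0.05, against 12.3% of all genes. The median log2 fold change was -0.28 over the 7 members and -0.05 over all genes tested. In bulk RNA, fewer cells that express a gene and less of its RNA per cell cannot be told apart.

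**Figure D1:**
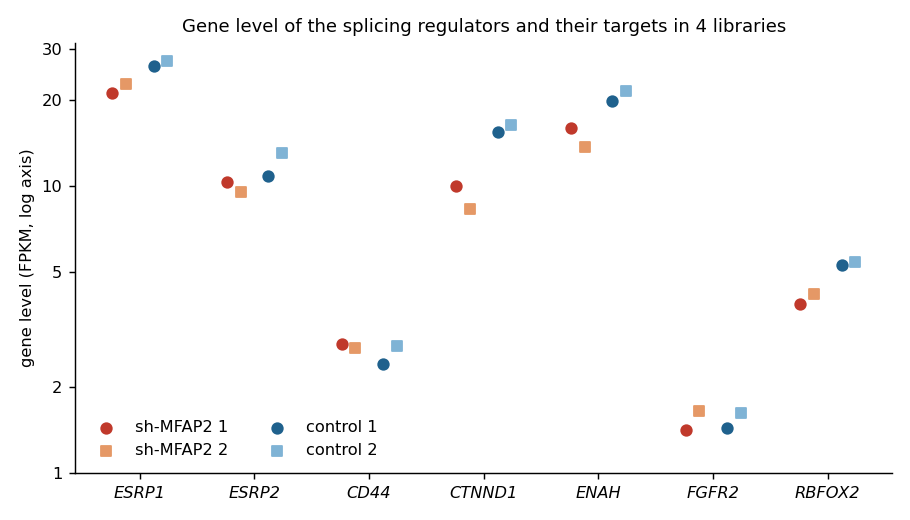
Gene level in FPKM (log axis) of the 7 members, with 1 point per library: red and orange for sh-MFAP2 replicates 1 and 2, dark and light blue for control replicates 1 and 2. For ESRP1, ESRP2, CTNND1, ENAH and RBFOX2 the sh-MFAP2 points lie below both control points, and for CD44 and FGFR2 they mix.

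ESRP1 (ENSG00000104413), on the plus strand of GRCh38 chromosome 8 from 94641074 to 94707466, had a level of 21.1 FPKM in replicate 1 and 22.8 FPKM in replicate 2 of sh-MFAP2, against 26.2 and 27.3 FPKM in the controls. The groups did not overlap, with means of 21.9 ± 1.20 and 26.7 ± 0.745 FPKM (SD, n = 2). The log2 fold change was -0.28 (SE 0.11, limma adjusted p = 0.415), which did not pass the test. Among its 11 transcripts, 5 held a mean of at least 5% of the summed transcript FPKM. ESRP1-201, which encodes a reading frame of 2031 bases, held 28.4% and 26.1% in the sh-MFAP2 and 23.4% and 26.8% in the control libraries. ESRP1-203, with a reading frame of 2043 bases, held 18.3% and 23.5% against 30.3% and 29.4%. It was lower in both sh-MFAP2 libraries, and its own level was 5.31 and 7.32 FPKM there against 10.88 and 11.04 FPKM, a log2 fold change of -0.72 (SE 0.22, unadjusted p = 0.0333, adjusted p = 0.614 over the 22312 transcripts tested). The shares of ESRP1-204 (24.4% and 19.1% against 17.0% and 16.8%) and ESRP1-202 (17.6% and 17.9% against 15.9% and 14.7%) were higher in both sh-MFAP2 libraries, and ESRP1-207 overlapped at 6.88% to 10.6%. None of the 5 shares passed the test (smallest unadjusted p = 0.179 in limma on log odds, adjusted p = 0.875).

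The paralog ESRP2 (ENSG00000103067), which binds like sequences and overlaps with ESRP1 in its targets, lies on the minus strand of chromosome 16 from 68229111 to 68238102. Its level was 10.3 and 9.57 FPKM in the sh-MFAP2 and 10.8 and 13.0 FPKM in the control libraries. The groups did not overlap, but sh-MFAP2 replicate 1 lay close to control replicate 1, and the log2 fold change was -0.24 (SE 0.14, adjusted p = 0.522), or -0.36 without control replicate 1 and -0.11 without control replicate 2. ESRP2-202, the transcript with a reading frame of 2151 bases, held 77.8% and 68.4% of the gene in the sh-MFAP2 and 77.7% and 57.7% in the control libraries. ESRP2-210, whose frame has 2181 bases, held 9.67% and 7.19% against 5.37% and 22.1%, so that control replicate 2 stood above the rest. All 4 named shares overlapped between the groups, the other members of the set being the non-coding ESRP2-209 (3.02% to 11.4%) and ESRP2-205 (4.92% to 7.39%).

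RBFOX2 (ENSG00000100320), which recognises GCAUG elements beside regulated exons and shares targets with the ESRP proteins, spans positions 35738736 to 36028425 of chromosome 22 on the minus strand. Its level was 3.89 and 4.22 FPKM under sh-MFAP2 against 5.32 and 5.43 FPKM in controls. These groups did not overlap and the spread within each was small, 4.06 ± 0.235 and 5.38 ± 0.0740 FPKM (SD, n = 2). The log2 fold change was -0.34 (SE 0.10, unadjusted p = 0.0334, adjusted p = 0.394). Summing its transcripts in place of the deposited gene value gave -0.22, with an unadjusted p of 0.0982.

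Within RBFOX2 the transcripts did not move alike. RBFOX2-209, which starts at the most upstream start codon shown above, was at 7.83 and 7.50 FPKM under sh-MFAP2 against 5.63 and 5.74 FPKM and was the only 1 of its 5 tested transcripts to be higher in sh-MFAP2. Its share of the gene was 34.3% and 32.7% against 21.2% and 21.1%, a difference of log odds of 0.90 (SE 0.39, unadjusted p = 0.0844, adjusted p = 0.875). The groups did not overlap, and the gap between them was wider than the spread within either. RBFOX2-208 (30.1% and 27.7% against 32.0% and 34.2%), RBFOX2-210 (14.9% and 17.1% against 20.4% and 18.2%) and RBFOX2-205 (4.54% and 6.96% against 9.63% and 9.95%) held lower shares in both sh-MFAP2 libraries, and RBFOX2-207 overlapped at 8.49% to 11.9%. RBFOX2-205, the longest RBFOX2 transcript at 6932 bases, was at 1.04 and 1.60 FPKM against 2.55 and 2.71 FPKM (log2 fold change -0.66, SE 0.22, unadjusted p = 0.0460, adjusted p = 0.651).

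Over all 7 genes, 28 transcripts had a mean of at least 1 FPKM and 31 shares had a mean of at least 5%. Of the 28 transcript levels, 12 were lower and 2 higher in both sh-MFAP2 libraries without overlap, against 24.9% and 17.8% of all transcripts tested, and 2 had an unadjusted p under 0.05, against 7.64%. Of the 31 shares, 8 were lower and 7 higher without overlap, against 17.6% and 18% of all shares tested, and none had an unadjusted p under 0.05, against 5.63%. With limma, none of the 22312 transcripts and none of the 26216 shares tested was called over the whole data set (1704 transcripts and 1476 shares had an unadjusted p under 0.05, and 1 or 5 transcripts were called under other settings). In simulated data of the same size, none of 200 transcripts or 200 shares shifted by 2 on the log2 scale was called, and 162 of 200 shares shifted by 6 were, so that the shares of single transcripts carry little power with 2 libraries per group.

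**Figure D2:**
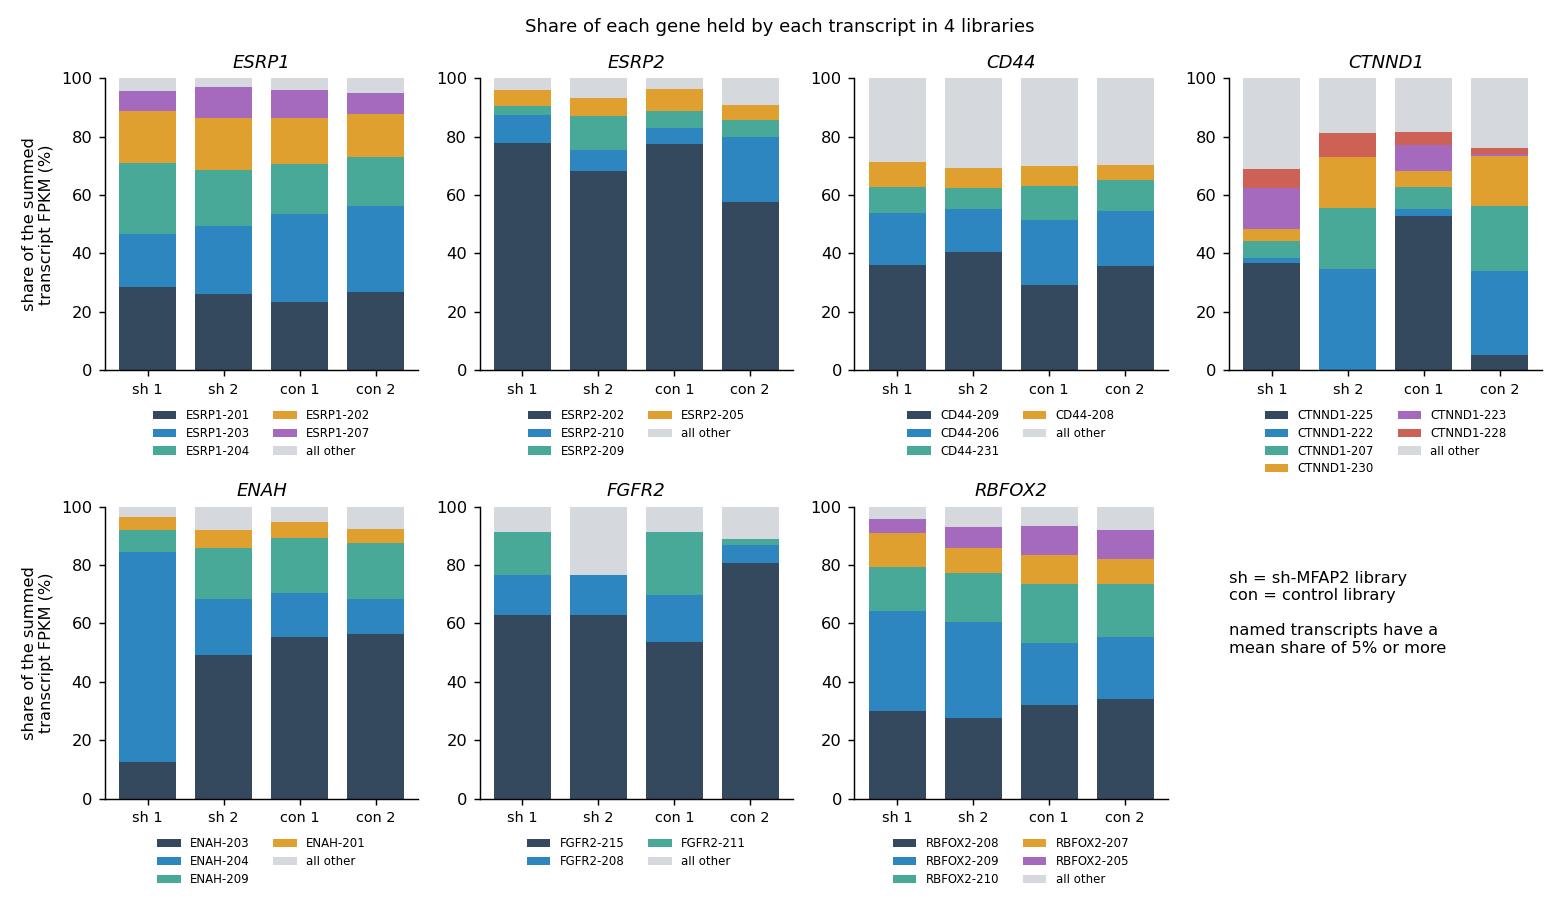
Stacked bars of the share (%) of each gene's summed transcript FPKM held by each transcript with a mean share of at least 5%, with all other transcripts in grey, in sh-MFAP2 replicates 1 and 2 (sh) and control replicates 1 and 2 (con). ESRP1-203 is narrower and RBFOX2-209 wider in both sh-MFAP2 bars, ENAH-204 fills 71.9% of sh-MFAP2 replicate 1 and at most 19.3% of the others, and the CTNND1 bars of the replicates 1 resemble each other more than they resemble the replicates 2.

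CD44, the receptor for hyaluronan, whose variable exons lengthen the stem of its extracellular part, is encoded on the plus strand of chromosome 11 from 35138870 to 35232402 (ENSG00000026508). Its gene level was 2.82 and 2.73 FPKM in the sh-MFAP2 and 2.40 and 2.77 FPKM in the control libraries, which overlapped (log2 fold change 0.08, SE 0.11, adjusted p = 0.775). In every library the variable forms made up most of CD44. Among the 8 transcripts that span the variable region, those with at least 1 variable exon held 96.3% and 94.5% of the FPKM in the sh-MFAP2 and 93.1% and 93.8% in the control libraries. The shares did not overlap and differed by 1.94 percentage points, or by 1.02 without sh-MFAP2 replicate 1, 3.81 by estimated reads and 1.29 with incomplete transcripts that hold a variable exon added. An exact two-sided permutation test gave p = 0.333, the smallest that 2 libraries against 2 allow. The other 29 transcripts, 30.3% to 33.3% of the FPKM, do not hold both standard exon ends that border the region and were left unclassified. Some of them hold variable exons.

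The named CD44 transcripts all carried variable exons. CD44-209, with v8 to v10 and the v8 junction shown above, was the most abundant, at 35.9% and 40.5% of the gene in the sh-MFAP2 and 29.1% and 35.9% in the control libraries. The groups touched, since sh-MFAP2 replicate 1 and control replicate 2 differed by less than 0.1 percentage points. CD44-206, with v3 to v10, held 18.1% and 14.9% against 22.6% and 18.8%, and CD44-208, with v2 to v10, 8.38% and 7.08% against 6.65% and 5.26%. CD44-231, an incomplete model with v6 to v9, held 8.93% and 6.88% against 11.6% and 10.5%. None of these 4 shares passed the test (smallest unadjusted p = 0.280). The standard form CD44-201, without variable exons, held 2.44% and 3.58% in the sh-MFAP2 and 4.60% and 4.20% in the control libraries, at 0.370 to 0.625 FPKM.

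FGFR2, a receptor tyrosine kinase for fibroblast growth factors, lies on the minus strand of chromosome 10 from 121478334 to 121598458 (ENSG00000066468) and was the lowest member, at 1.41 and 1.64 FPKM in the sh-MFAP2 and 1.43 and 1.62 FPKM in the control libraries. The pairs were nearly superimposed (log2 fold change -0.00105, SE 0.12, adjusted p = 0.998). Transcripts with the epithelial exon IIIb prevailed in all 4 libraries. They held 98.1% and 81.8% of the classified FPKM in the sh-MFAP2 and 97.8% and 94.3% in the control libraries, and the groups overlapped (difference -6.13 percentage points, exact permutation p = 1). The lower share of sh-MFAP2 replicate 2 came from exon IIIc transcripts at 0.700 FPKM (about 144 reads), against 0.0668, 0.0767 and 0.225 FPKM (about 14.5, 16.3 and 60.0 reads) in sh-MFAP2 replicate 1 and the controls. Without sh-MFAP2 replicate 2 the difference was 2.01 percentage points in the other direction, and no single IIIc transcript had a mean of 0.1 FPKM. FGFR2-215, a IIIb transcript, held 63.1% and 62.9% of the gene against 53.5% and 80.9%, followed by the IIIb transcripts FGFR2-208 (6.01% to 16.2%) and FGFR2-211 (0% to 21.7%), all of which overlapped.

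ENAH, or Mena, a member of the Ena/VASP family that extends actin filaments and shapes cell protrusions, lies on the minus strand of chromosome 1 from 225486835 to 225653142 (ENSG00000154380). The deposited gene level was 15.9 and 13.7 FPKM in the sh-MFAP2 and 19.8 and 21.5 FPKM in the control libraries. The groups did not overlap, and the log2 fold change was -0.46 (SE 0.13, unadjusted p = 0.0263, adjusted p = 0.385). The size depends on how transcripts are combined. The sum of its transcripts was 23.6 and 43.9 FPKM against 69.8 and 81.5 FPKM, a log2 fold change of -1.20 (SE 0.33, adjusted p = 0.345), because the deposited gene value weights each transcript by its length.

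The split of ENAH by exon 11a set sh-MFAP2 replicate 1 apart from the other 3 libraries. Transcripts with exon 11a, the epithelial form, held 78.3% and 25.5% of the classified FPKM under sh-MFAP2 against 19.0% and 17.6% in the controls. The groups did not overlap, with means of 51.9% ± 37.4 and 18.3% ± 1.03 (SD, n = 2) and an exact permutation p of 0.333, but the difference of 33.6 percentage points came to 7.16 without sh-MFAP2 replicate 1 and to 60.0 without replicate 2. In levels, the forms with exon 11a were at 17.1 and 10.0 FPKM against 12.2 and 13.2 FPKM and overlapped. The forms without it were at 4.74 and 29.3 FPKM against 52.0 and 61.7 FPKM and were lower in both sh-MFAP2 libraries. By estimated reads, forms with exon 11a had about 13654 and 6428 against 8511 and 10529. Forms without it had about 858 and 4648 against 8905 and 13427, so that in the controls the classes lay closer by reads than by FPKM. Since FPKM divides by transcript length, these shares also reflect the lengths of the transcripts and are not a direct measure of exon use.

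Most of the exon 11a class was ENAH-204 (71.9% and 19.3% of the gene against 14.9% and 11.9%, unadjusted p = 0.138), whose exon 11a is shown above. At 13168 bases it is also the longest listed ENAH transcript. The only other transcript with exon 11a, ENAH-202, a retained-intron model of 3655 bases, was at 0.185 and 1.53 FPKM under sh-MFAP2 against 1.82 and 3.51 FPKM. ENAH-202 was lower in both sh-MFAP2 libraries. The level of ENAH-204 was 17.0 and 8.48 FPKM under sh-MFAP2 against 10.4 and 9.68 FPKM, and the groups overlapped. In sh-MFAP2 replicate 2 it lay below both controls. There the higher share of the class came with the lower level of the forms without exon 11a, 29.3 against 52.0 and 61.7 FPKM. ENAH-203, which has the skipping junction, held 12.5% and 49.2% against 55.5% and 56.4%. ENAH-209, also without exon 11a, held 7.61% and 17.4% against 18.9% and 19.4%. ENAH-201, an incomplete model, overlapped at 4.33% to 6.21%.

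CTNND1 encodes p120-catenin, which binds the juxtamembrane part of classical cadherins and keeps them at the cell surface, on the plus strand of chromosome 11 from 57753243 to 57819546 (ENSG00000198561). Of the 7 deposited gene values it differed most, while by sums of transcripts ENAH did. Its level was 9.97 and 8.33 FPKM in the sh-MFAP2 and 15.5 and 16.3 FPKM in the control libraries, with means of 9.15 ± 1.16 and 15.9 ± 0.590 FPKM (SD, n = 2). The groups lay well apart, yet the log2 fold change of -0.74 (SE 0.13, unadjusted p = 0.00589) had an adjusted p of 0.302 and was not called. The sum of its transcripts gave -0.75 (adjusted p = 0.272).

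Several isoform shares of CTNND1 lay closer between libraries of the same replicate number than between libraries of the same group. Those of the third start and of exon A did so only in part. Over all shares tested, the deviations from the group means of libraries with the same number had a correlation of 0.000830. Transcripts from the first start codon, which give the long isoform 1 found in mesenchymal cells, held 16.0% and 40.6% of the classified FPKM in the sh-MFAP2 and 6.03% and 35.6% in the control libraries. The groups overlapped (exact permutation p = 0.667), and the difference of 7.47 percentage points turned to -4.83 without sh-MFAP2 replicate 2 and to -7.32 without control replicate 1. Transcripts from the third start, isoform 3 of epithelial cells, held 72.3% and 59.3% against 85.9% and 58.7%, while the second start (0.00554% to 9.76%) and the fourth (0.0571% to 2.32%) held little. In FPKM, isoform 3 was at 10.7 and 7.94 against 20.2 and 15.3 and was lower in both sh-MFAP2 libraries, and isoform 1 was at 2.36 and 5.43 against 1.41 and 9.31 and overlapped.

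**Figure D3:**
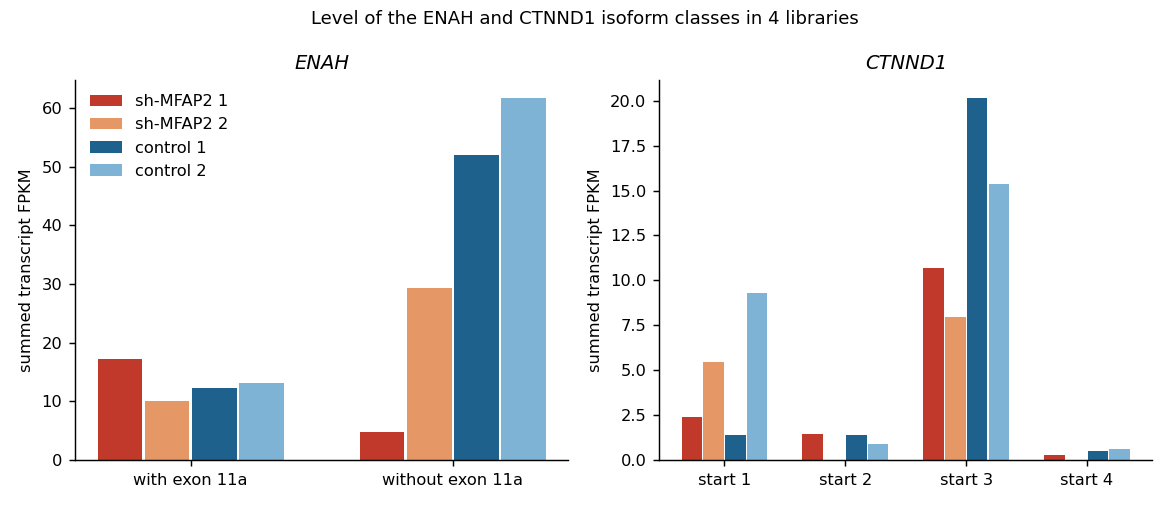
Summed transcript FPKM of ENAH with and without exon 11a (left) and of CTNND1 by start codon 1 to 4 (right), with 1 bar per library in the order sh-MFAP2 1 and 2, control 1 and 2. ENAH without exon 11a and CTNND1 from start 3 are lower in both sh-MFAP2 bars than in either control bar, while start 1 of CTNND1 is high in the replicates 2 of both groups.

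Single transcripts of CTNND1 went further in the same way. CTNND1-225, with start 3 and exon B, held 36.7% and 0.0652% of the gene in the sh-MFAP2 and 52.9% and 5.23% in the control libraries, and CTNND1-222, with start 1 and exon C, held 1.70% and 34.7% against 2.42% and 28.9%. CTNND1-207 (5.74% and 20.9% against 7.36% and 22.2%) and CTNND1-230 (4.22% and 17.5% against 5.69% and 16.9%), both with start 3, were likewise high in the replicates 2. CTNND1-223 held 14.3% and 0% against 8.63% and 0.835%. Only the incomplete CTNND1-228 did not overlap between the groups, at 6.27% and 7.95% against 4.57% and 2.09% (unadjusted p = 0.0966, adjusted p = 0.875).

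The alternative exons of CTNND1 and RBFOX2 were examined after their values had been seen. Their shares are sums over the deposited FPKM of whole transcripts that hold the exon, and no reads over an exon were counted. Exon C was in 1.93% and 53.4% of the CTNND1 FPKM that spans it in the sh-MFAP2 and in 8.90% and 39.1% in the control libraries, and exon B in 50.9% and 16.5% against 63.8% and 16.9%. Exon A was in nearly all of it, 95.5% and 99.1% against 96.3% and 95.9%. For RBFOX2 the 40-base exon was in 83.2% and 84.0% of the FPKM in the sh-MFAP2 and 79.5% and 80.3% in the control libraries, and the most upstream start codon in 35.1% and 33.9% against 22.1% and 22.3%. Both RBFOX2 classes were higher in each sh-MFAP2 library, by 3.66 (10.1 by estimated reads) and 12.3 percentage points. For each, p = 0.333 in the exact permutation test is again the smallest possible. The upstream start class is RBFOX2-209 alone, whose share of the gene is given above, and RBFOX2-209 also holds the 40-base exon. The classes are thus not separate results.

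**Figure D4:**
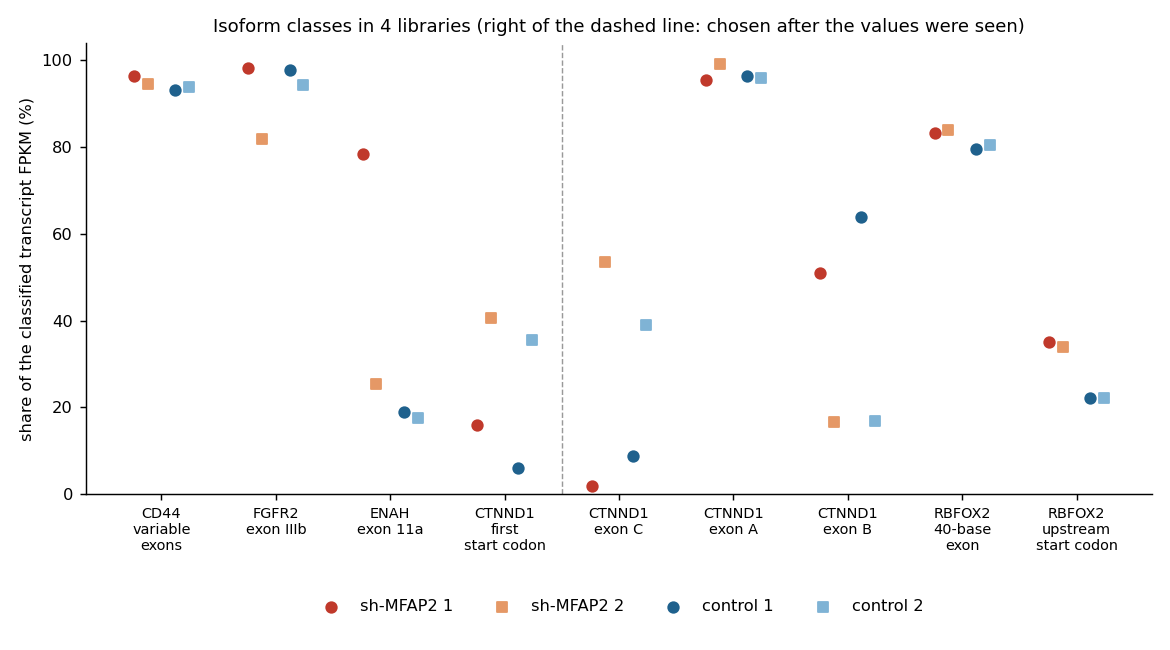
Share (%) of the classified transcript FPKM that holds each isoform feature, with 1 point per library (red and orange for sh-MFAP2 1 and 2, dark and light blue for control 1 and 2). CD44 variable exons, ENAH exon 11a and both RBFOX2 features lie higher in the sh-MFAP2 libraries without overlap, whereas the CTNND1 first start, exon C and exon B pair by replicate number and FGFR2 exon IIIb points overlap.

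Other genes of the pathway were read from lists that fit these factors. Of 42 other splicing regulators, 34 could be tested. In sh-MFAP2, 11 were higher and 23 lower, and their median log2 fold change was -0.15 beside -0.05 for all genes. None was called, and 1 higher and 5 lower had an unadjusted p under 0.05, against 3.89% and 8.41% of all genes. PTBP3, a polypyrimidine tract binding protein that represses exons, was at 25.9 and 25.8 FPKM in the sh-MFAP2 and 14.3 and 15.2 FPKM in the control libraries (log2 fold change 0.77, SE 0.10, adjusted p = 0.205). HNRNPU was at 70.8 and 65.3 against 87.4 and 89.0 FPKM (adjusted p = 0.394) and KHDRBS1, or Sam68, at 32.8 and 34.8 against 42.3 and 47.1 FPKM (adjusted p = 0.394).

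Factors known to act on the same exons as the ESRP proteins were given by name. HNRNPM, which promotes skipping of CD44 variable exons, was at 65.8 and 49.3 FPKM in the sh-MFAP2 and 53.0 and 54.7 FPKM in the control libraries and overlapped. PTBP1 also overlapped, at 63.8 to 69.8 FPKM. RBM47 was at 8.31 and 8.97 against 10.1 and 10.1 FPKM (adjusted p = 0.480), and MBNL1 at 5.66 and 11.8 against 16.4 and 13.8 FPKM (adjusted p = 0.460). QKI, a factor of mesenchymal splicing, was at 0 FPKM in 3 libraries and at 0.00205 FPKM in control replicate 1.

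Of 30 other genes with ESRP-dependent exons, 29 could be tested, of which 8 were higher and 21 lower (median -0.12). None was called and 3 of 29, all lower, had an unadjusted p under 0.05, a share near the 8.41% of all genes. These were CSNK1G3, a casein kinase, at 4.44 and 4.21 FPKM in the sh-MFAP2 and 6.21 and 6.39 FPKM in the control libraries, ITGA6, the laminin-binding integrin alpha 6, at 27.5 and 20.4 against 38.8 and 45.0 FPKM, and FNIP1, a partner of folliculin, at 2.27 and 2.63 against 3.53 and 4.10 FPKM. Their adjusted p-values were 0.337, 0.352 and 0.370.

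Among 24 ligands and partners of the member proteins, 11 were tested, 2 higher and 9 lower (median -0.23), and none was called. FGFR1 was at or below 0.0147 FPKM in all libraries, whereas FGFR3 (3.23 to 3.98 FPKM) and FGFR4 (11.02 to 13.4 FPKM) were expressed and overlapped between the groups. The 3 with the smallest p were FRS2, the adaptor of FGF receptors, at 0.851 and 1.15 against 1.63 and 2.37 FPKM (unadjusted p = 0.0354), the hyaluronan synthase HAS3 at 0.907 and 1.05 against 1.34 and 1.42 FPKM (unadjusted p = 0.0667), and ZBTB33, or Kaiso, a transcription factor bound by p120-catenin. ZBTB33 was at 4.04 and 0.0175 against 6.43 and 6.40 FPKM, so that sh-MFAP2 replicate 2 stood apart (unadjusted p = 0.117). The ligands FGF7 and FGF10 of the IIIb form were at or below 0.00509 FPKM in every library.

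Epithelial and mesenchymal state genes were read beside the regulators. Of 18 epithelial genes, 16 could be tested, of which 8 were higher and 8 lower (median -0.01). The 3 with the smallest p were CLDN7 at 26.0 and 34.2 against 46.1 and 48.2 FPKM (adjusted p = 0.371), RAB25 at 53.4 and 44.9 against 35.3 and 34.1 FPKM (adjusted p = 0.379) and GRHL2, a transcription factor that maintains epithelial genes, at 6.75 and 6.82 against 8.62 and 8.24 FPKM (adjusted p = 0.409). CLDN4, chosen after its values were seen, had 47.1 FPKM in sh-MFAP2 replicate 1 and 0.0151 FPKM in replicate 2, against 0.291 and 0.551 FPKM in controls, so that 1 library stood apart. Of 14 mesenchymal genes, 11 were below 0.1 FPKM in all libraries, ZEB1 and ZEB2 among them, and only VIM (3.06 and 2.87 against 2.32 and 1.91 FPKM) and SNAI1 (5.32 and 7.88 against 9.78 and 9.89 FPKM) were tested. Their adjusted p-values were 0.404 and 0.415.

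**Figure D5:**
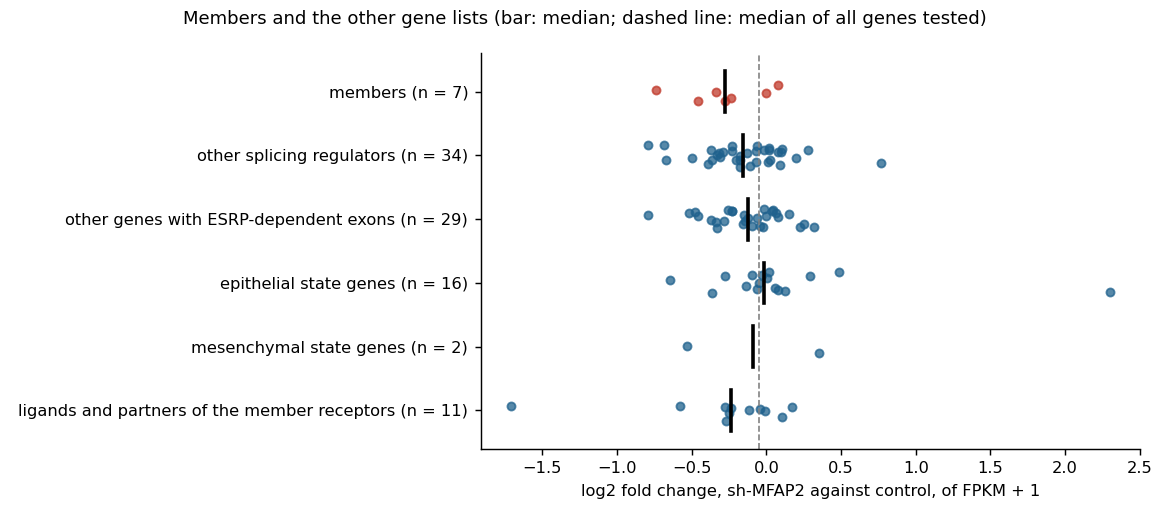
Log2 fold change of sh-MFAP2 against control for the 7 members (red) and for the genes tested in each of the 5 other lists (blue), with 1 point per gene, a black bar at the median of each list and a dashed line at the median of all 9873 genes, -0.05. The members, the splicing regulators, the genes with ESRP-dependent exons and the ligands and partners have medians between -0.28 and -0.12, left of the dashed line. The mesenchymal list, with only 2 genes tested, has a median of -0.09, also left of it.

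The genes whose profile over the 4 libraries was most like each ESRP gene were found by the Euclidean distance between centred log2(FPKM + 1) values among 5758 genes whose mean reached 5 FPKM. For ESRP1 these were ATP11B (distance 0.0208), USP14 (0.0234) and ERAP2 (0.0246), and 173 genes lay within 0.1. For ESRP2 they were SLC25A44 (0.0212), CHAMP1 (0.0389) and PIK3CB (0.0456), with 38 genes within 0.1.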

How the data were processed

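RNA of AGS cells was sequenced in 2 sh-MFAP2 and 2 control libraries, grouped by their labels. A gene table and a transcript table were deposited, whose values the authors did not label and which were read here as FPKM. Per the submitters' processing notes the build was hg38, and the program and annotation are not given in the sources used here. In 100% of 8962 genes the deposited gene value equalled its transcripts weighted by length and divided by a fixed length. All 144 member transcripts matched GENCODE 29 by identifier (97.8% of all transcripts), 134 with the same length, and coordinates, exons and sequences come from it. Shares were computed over the summed FPKM of a gene's listed transcripts and tested as log2((transcript + 0.1)/(rest + 0.1)) for transcripts with a mean share of at least 5%. Isoform classes were taken from exon and coding coordinates and compared over libraries by exact permutation. Class shares therefore rest on how reads were assigned to overlapping transcripts in the deposited values, and reads over single exons or junctions were not available.

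Genes, transcripts and shares were fitted with limma 3.58.1 (R 4.3.3; trend for genes and transcripts, pseudocount 1), over each whole table. Python 3.11.15, pandas 2.3.3 and matplotlib 3.10.9 were used. In simulated data limma called 178 of 200 genes shifted by 2 on the log2 scale, with 13 false calls, and 158 of 200 transcripts shifted by 4. The study names a random variance model test, for which limma was used. Named were the members, their transcripts with a mean share of at least 5%, the 3 genes of each list with the smallest p, and the set factors and receptors. The sequence of 1 alternative exon is not reported here. The members and lists were chosen with earlier results of these data known. Alternatives were other filters, pseudocounts, scalings, a replicate block, no trend, other transcripts counted, and leaving out each library.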

Additional observations from a re-analysis of the deposited data

How the results depend on the processing

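With 2 libraries per group, no setting called a member. Against 27 genes called as reported, 6 were called with no filter beyond a value above 0, 9 at a mean of at least 5 FPKM and 0 to 0 when any 1 library was left out. Unadjusted limma p-values of members also moved with scaling. By quantile normalization and median of ratios, RBFOX2 had 0.0727 and 0.0457, ENAH 0.0394 and 0.0547, and CTNND1 0.0102 and 0.0120. Of all genes, 598 lower and 533 higher had an unadjusted p under 0.05 by quantile normalization, against 830 and 384 as reported. The fit with replicate number as a block called 0 genes (722 had an unadjusted p under 0.05), 0 transcripts and 0 shares. That fit gave unadjusted p-values of 0.0197 for CTNND1, 0.0727 for ENAH and 0.0873 for RBFOX2. Libraries with the same number shared nothing else by the labels, and their deviations from the group means had correlations of -0.0572 for genes, -0.00624 for transcripts and 0.000830 for shares. Of transcripts, 1 was called at a mean of at least 5 FPKM and 5 with a pseudocount of 0.1. The difference in CD44 variable exons was 3.81 percentage points by estimated reads. Chosen after the data were seen were the sums of transcripts, the exons of CTNND1 and RBFOX2 and the wider CD44 class (1.29 percentage points). By estimated reads the RBFOX2 40-base exon came to 10.1 and its upstream start to 11.5 percentage points. The direction turned for the FGFR2 gene level (0.0375 by quantile normalization, 0.0291 by median of ratios, -0.0678 to 0.0657 without 1 library) and for CTNND1-222 (-0.0541 with a pseudocount of 0.01). Leaving out 1 library also turned the log odds of these shares, which ran from -5.11 to 1.18 for CTNND1-225, -2.21 to 2.30 for CTNND1-222, -1.21 to 0.80 for CTNND1-207, -1.20 to 0.93 for CTNND1-230, -2.34 to 2.33 for CTNND1-223, -0.18 to 0.28 for ENAH-201, -0.29 to 0.37 for ESRP1-207, -0.33 to 1.00 for ESRP2-202, -1.57 to 0.64 for ESRP2-210, -0.88 to 0.97 for ESRP2-209, -0.33 to 0.27 for ESRP2-205, -1.22 to 0.53 for FGFR2-215, -0.27 to 1.05 for FGFR2-208, -2.25 to 0.79 for FGFR2-211 and -0.14 to 0.38 for RBFOX2-207. The cause was not tested. Among the isoform classes, sh-MFAP2 replicate 2 or control replicate 1 set the sign for several. Without the first, FGFR2 exon IIIb came to 2.01, the first CTNND1 start to -4.83 and its exons C, A and B to -22.1, -0.679 and 10.5 percentage points. Without the second, the first start came to -7.32 and exons C and B to -11.4 and 16.8.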
